A study of Mus musculus with 28 samples.

Results

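A set of 6 negative feedback genes of the Wnt pathway, *Notum*, *Apcdd1*, *Rnf43*, *Znrf3*, *Nkd1* and *Axin2*, were followed in mouse colon organoids with and without induced deletion of *Apc*. They were taken by name, and all 6 were among the 13519 genes in the deposited counts. The organoids were grown from colon epithelium of C57BL/6N mice, and all donors carried *Villin*::CreERT2, a tamoxifen-inducible Cre driven by an intestinal epithelial promoter, and *Apc* flox/flox. AC organoids carried no other allele, PAC organoids also carried *Trp53* LSL-R172H/+, BAC organoids also carried *Braf* floxV600E/+, and BPAC organoids carried both. Each culture was treated for 24 hours with 3.5 µM 4-hydroxytamoxifen (4-HT), which activates Cre, or with ethanol (EtOH) as the vehicle, and RNA was isolated 3 days later. In PAC, BAC and BPAC active Cre also induces the mutant *Trp53* allele, the mutant *Braf* allele or both. Every genotype carried floxed *Apc*, so 4-HT without deletion of *Apc* was not measured. There were 28 samples from 14 cultures of 7 donor mice. AC had 1 donor and the other genotypes had 2 each, and each donor gave 2 cultures. The sample titles end in 1 or 2, apart from 1 title without this number, and the number was read here as duplicate 1 or 2. The study describes 2 distinct passages, and the duplicates are taken here to be these passages. A group therefore held 2 samples for AC and 4 for each other genotype, and the AC samples describe 1 animal.

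In cells without Wnt signal a destruction complex built on APC and AXIN proteins has β-catenin degraded, and Wnt binding to Frizzled and LRP receptors stops this, so that β-catenin enters the nucleus and activates target genes together with TCF/LEF factors. Several of those targets restrain the pathway again and are known as its negative feedback. NOTUM is a secreted enzyme that removes the lipid Wnt proteins need to bind Frizzled, and APCDD1 is a membrane protein that binds Wnt and LRP. RNF43 and ZNRF3 are membrane E3 ubiquitin ligases that clear Frizzled from the cell surface and are themselves removed when R-spondin binds with LGR receptors. NKD1 binds Dishevelled inside the cell, and AXIN2 is an inducible scaffold of the destruction complex. The culture medium of the study contained Wnt3a, R-spondin-1 and a GSK3 inhibitor, so the pathway was stimulated from outside in the EtOH-treated samples as well.

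Because the members are known as targets of TCF/LEF factors, the sequence at their start sites is shown for those with a RefSeq promoter window (GRCm38.p6, 250 bases before and 50 bases after the start, plus strand). Of the 6 members, 3 had a window, and *Rnf43* had 2. The capital letter marks the annotated start site, the first transcribed base.
*Axin2*, chr11:108920099-108920398: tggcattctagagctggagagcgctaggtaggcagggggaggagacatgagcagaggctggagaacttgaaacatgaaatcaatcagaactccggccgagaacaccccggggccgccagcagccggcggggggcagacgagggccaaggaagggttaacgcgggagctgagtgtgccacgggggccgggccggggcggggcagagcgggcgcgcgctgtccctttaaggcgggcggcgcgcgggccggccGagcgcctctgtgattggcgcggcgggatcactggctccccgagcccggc
*Nkd1*, chr8:88527383-88527682: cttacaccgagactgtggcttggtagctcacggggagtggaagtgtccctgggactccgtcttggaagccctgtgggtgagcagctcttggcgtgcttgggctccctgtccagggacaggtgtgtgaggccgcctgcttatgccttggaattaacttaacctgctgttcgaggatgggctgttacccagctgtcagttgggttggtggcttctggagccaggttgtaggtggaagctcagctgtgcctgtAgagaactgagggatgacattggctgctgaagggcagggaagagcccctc
*Rnf43*, first start, chr11:87662837-87663136: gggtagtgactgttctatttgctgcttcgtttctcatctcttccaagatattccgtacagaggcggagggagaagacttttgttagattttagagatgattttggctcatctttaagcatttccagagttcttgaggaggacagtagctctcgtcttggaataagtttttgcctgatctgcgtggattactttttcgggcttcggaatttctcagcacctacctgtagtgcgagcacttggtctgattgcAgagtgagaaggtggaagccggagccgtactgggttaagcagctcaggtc
*Rnf43*, second start, chr11:87699647-87699946: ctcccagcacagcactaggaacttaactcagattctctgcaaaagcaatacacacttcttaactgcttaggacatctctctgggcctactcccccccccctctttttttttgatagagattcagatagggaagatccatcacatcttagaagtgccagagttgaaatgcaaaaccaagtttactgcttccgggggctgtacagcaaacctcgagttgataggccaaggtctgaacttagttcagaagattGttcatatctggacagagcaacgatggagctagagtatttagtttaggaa
The *Axin2* window was 70.0% G and C, the *Nkd1* window 58.3%, and the *Rnf43* windows 46.7% and 44.3%, beside a median of 52.7% over 32851 windows. The TCF/LEF core CTTTG, followed by A or T and then again by A or T, was searched on both strands. None of the 4 windows held one, and 16.9% of all windows did. This says only that these letters are not within these 300 bases. The *Nkd1* start, at 88527633, lies inside the gene, which is annotated from 88521354. The second *Rnf43* start, at 87699897, likewise lies inside a gene annotated from 87662722. Which starts are used in these cells was not tested.

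The genome build GRCm38 with the GENCODE M21 annotation lists all 6 as protein coding. *Notum* (ENSMUSG00000042988) is at chr11:120653788-120661175 and *Znrf3* (ENSMUSG00000041961) at chr11:5276324-5444847, both on the minus strand. *Rnf43* (ENSMUSG00000034177) is at chr11:87662722-87735539 and *Axin2* (ENSMUSG00000000142) at chr11:108920349-108950783, both on the plus strand. *Nkd1* (ENSMUSG00000031661) is at chr8:88521354-88594884 and *Apcdd1* (ENSMUSG00000071847) at chr18:62922231-62961179, on the plus strand as well. Exons of *Notum* overlap those of 2 antisense genes, *Notumos* and *Myadml2os*, and exons of *Axin2* overlap those of the antisense gene *Gm11670*. None of these antisense genes is among those counted, and without a stated strand setting their reads cannot be told apart from those of *Notum* and *Axin2*.

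Total counts per sample ran from 20577276 to 40068718. The 12 colon epithelium markers used, among them *Epcam* and *Cdx2*, were counted in every sample, and their summed level was 32000 to 46400 CPM (counts relative to the TMM-scaled library total) with EtOH and 21300 to 28600 with 4-HT. Of 11 stromal and immune markers only *Pecam1* and *Cd3e* were among the genes counted, with a summed level of 1.18 to 3.42 CPM with EtOH and 0.472 to 1.68 CPM with 4-HT. *Apc* counts over the whole gene were higher with 4-HT in each genotype (log2 fold change of 0.67 to 0.92), so they do not show the deletion, which removes only a part of the gene. Both PAC donors had 1 library that went against its label. *Xist*, transcribed from the inactive X chromosome of females, and genes of the Y chromosome should not occur together in 1 donor. PAC donor 1 otherwise had 114 to 144 CPM summed over Y-linked genes with at most 0.251 CPM of *Xist*, and PAC donor 2 otherwise had 59.9 to 91.7 CPM of *Xist* with no Y-linked counts. The 4-HT-treated duplicate 1 libraries had 25.2 and 22.0 CPM of *Xist* together with 55 and 53.5 CPM of Y-linked genes. They were also the most alike pair of libraries within any group, with a root mean square difference of 0.204 in log2 CPM, the next pair being at 0.346. Their counts still differed more than by sampling (a mean chi-square of 2.38 per gene), and they were kept as 2 samples, with the PAC results of the members also given without them.

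The question of the main comparison was whether the feedback genes respond to 4-HT in each genotype. All 6 members had higher fitted levels with 4-HT than with EtOH in each of the 4 genotypes. In the edgeR quasi-likelihood test over all genes, with a threshold of 0.01 on the Benjamini-Hochberg adjusted p, all 6 members rose in BPAC and in PAC, 5 of 6 in BAC, and 2 of 6 in AC. Of all 13519 genes, 22.0% rose in BPAC, 11.2% in PAC, 20.3% in BAC, and 3.00% in AC. No member fell in any genotype, where 23.0%, 12.2%, 21.5% and 4.25% of all genes fell in the same order. The median log2 fold change of the 6 members was 1.34 in BPAC, 1.15 in BAC, 1.52 in PAC and 1.20 in AC, with the median over all genes between -0.04 and 0.01. All but *Notum* were higher with 4-HT in each of the 14 cultures, and *Notum* in 13, while 18.5% of all genes rose in every culture. In AC and in PAC all 6 members had every 4-HT-treated sample above every EtOH-treated sample, and in BAC and BPAC 5 of the 6 did. The same held for 29.4%, 16.0%, 25.7% and 22.5% of all genes in AC, PAC, BAC and BPAC, the share for AC being high because only 2 samples faced 2. In bulk RNA, more cells of a type that carries these transcripts and more transcript per cell cannot be told apart. Of the 12 colon epithelium markers, 7 fell in BPAC, 7 in BAC, 4 in PAC and 2 in AC, and none rose at the threshold. *Krt20*, a marker of differentiated colonocytes, was at 871 to 1960 CPM with EtOH and 164 to 620 CPM with 4-HT. *Car1*, another such marker, was at 9660 to 20600 and 2540 to 9150 CPM. *Krt18* went the other way, at 842 to 1610 CPM with EtOH and 1440 to 2050 CPM with 4-HT. The part of these markers in the results on the members was not tested. Of 8 markers of Paneth cells and the small intestine 7 were counted, of which 3 rose in BPAC, 2 in BAC, 3 in PAC and 1 in AC, and 2 fell in each genotype. Among them *Lyz1* had 9.2 to 121 CPM with EtOH and 69.8 to 473 CPM with 4-HT, *Itln1* 2.52 to 14.5 and 12.3 to 87.7 CPM, and *Alpi* 311 to 551 and 39.7 to 132 CPM, and their part was not tested either.

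**Figure D1:**
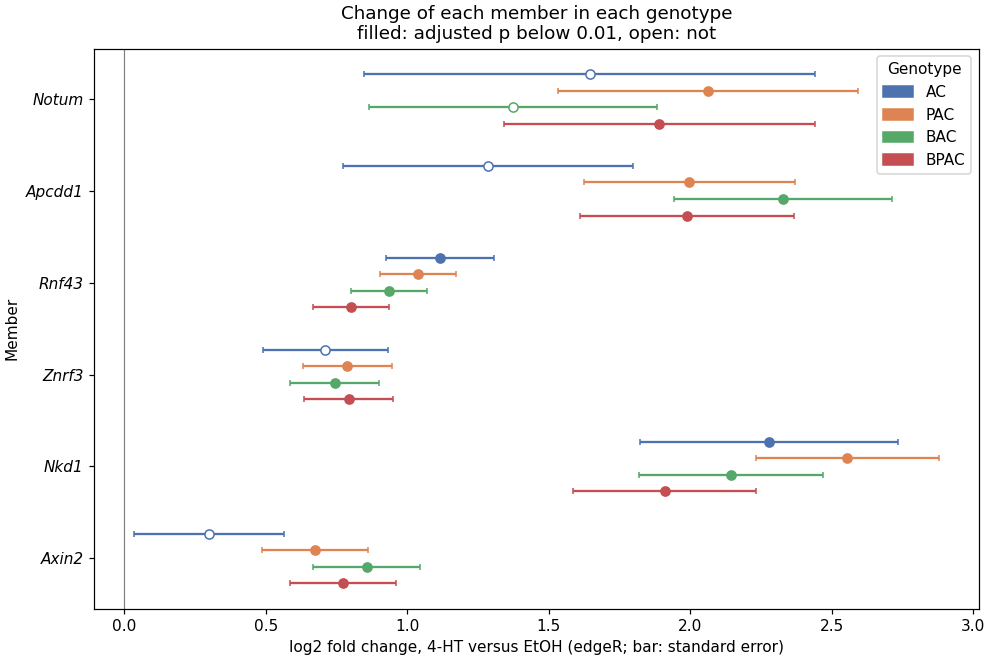
Log2 fold change of each member with 4-HT against EtOH in AC, PAC, BAC and BPAC (colours), from the edgeR fit, with its standard error as the bar; filled points passed an adjusted p of 0.01. All 24 points lie above 0, *Nkd1* from 1.91 to 2.55 and *Axin2* from 0.30 to 0.86.

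The PAC calls depended on the duplicate 1 cultures. Without both of these cultures, which leaves 2 PAC samples per treatment, all 6 members were still higher with 4-HT and 5 had an unadjusted p under 0.05, but none passed the adjusted threshold. Of all genes 22 rose and 26 fell, against 1511 and 1655 with all 4 PAC cultures. The part of the smaller number of samples in these lost calls was not tested. *Nkd1* was then at a log2 fold change of 1.98 ± 0.42 (SE, adjusted p = 0.0152), *Rnf43* at 0.91 ± 0.18 (adjusted p = 0.0118) and *Apcdd1* at 2.13 ± 0.57 (adjusted p = 0.0356). *Znrf3* was at 0.63 ± 0.21 (adjusted p = 0.0769), *Axin2* at 0.58 ± 0.28 (adjusted p = 0.205) and *Notum* at 1.15 ± 0.77 (adjusted p = 0.377). With the 4-HT-treated duplicate 1 samples of PAC summed to 1 sample, an alternative chosen after seeing the data, 4 members passed, and *Axin2* and *Notum* did not (adjusted p = 0.0138 for both). With duplicate 1 alone in all genotypes 5 members passed in PAC, and with duplicate 2 alone none did. Of all genes 1830 and 2 rose in PAC in these 2 fits.

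**Figure D2:**
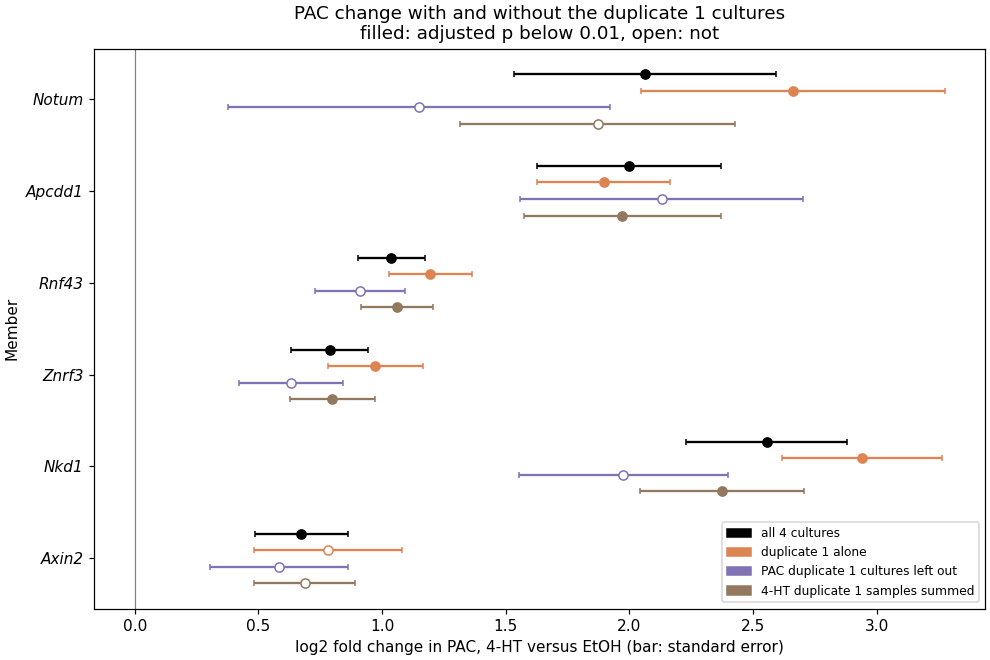
Log2 fold change of each member in PAC with 4-HT against EtOH, with its standard error as the bar, for all 4 PAC cultures, for duplicate 1 alone, without the duplicate 1 cultures of PAC, and with the 4-HT-treated duplicate 1 samples summed; filled points passed an adjusted p of 0.01. The purple points, without those cultures, all stay above 0 and are all open, and those of *Notum* and *Nkd1* lie furthest below the value from all 4 cultures.

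Samples are given below in the order donor 1 duplicate 1, donor 1 duplicate 2, donor 2 duplicate 1 and donor 2 duplicate 2, with AC having donor 1 only, and levels are CPM scaled with TMM factors.

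*Notum*, the secreted Wnt deacylase, had the fewest counts of the members and the most variable change. Its raw counts were between 1 and 17 in the EtOH-treated samples and between 13 and 62 in the 4-HT-treated ones. In AC it went from 0.239 and 0.210 CPM with EtOH to 0.880 and 0.539 CPM with 4-HT. In PAC the EtOH-treated samples had 0.322, 0.333, 0.241 and 0.305 CPM and the 4-HT-treated samples 1.87, 0.591, 1.73 and 0.821 CPM. The highest PAC values were those of the 2 libraries with both *Xist* and Y-linked counts, and the groups did not overlap with or without them. In BAC it had 0.0414, 0.723, 0.366 and 0.617 CPM with EtOH and 1.25, 1.09, 1.54 and 0.595 CPM with 4-HT. Here the groups overlapped, since donor 2 duplicate 2 held 17 counts under each treatment and was the only culture of the 14 in which *Notum* was not higher with 4-HT. In BPAC the values were 0.161, 0.162, 0.564 and 0.168 CPM with EtOH and 0.628, 1.74, 0.880 and 0.715 CPM with 4-HT, with no overlap. The log2 fold change was 2.06 ± 0.53 (SE) in PAC (adjusted p = 0.00382) and 1.89 ± 0.55 in BPAC (adjusted p = 0.00513), and these passed. It was 1.64 ± 0.80 in AC (adjusted p = 0.162) and 1.37 ± 0.51 in BAC (adjusted p = 0.0255), and these did not. The BPAC call was lost without donor 1 duplicate 1 (adjusted p = 0.0154), donor 1 duplicate 2 (1.30, adjusted p = 0.075) or donor 2 duplicate 2 (adjusted p = 0.0194), and by limma-voom.

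*Apcdd1*, the membrane inhibitor, rose in the 3 genotypes with 2 donors. In AC it had 3.59 and 2.69 CPM with EtOH and 9.81 and 5.50 CPM with 4-HT. In PAC it had 2.69, 1.90, 2.69 and 2.18 CPM with EtOH and 9.75, 9.68, 10.2 and 8.25 CPM with 4-HT. The 4 PAC cultures were close to each other under both treatments, those of duplicate 1 included. In BAC it had 2.03, 0.826, 1.91 and 1.16 CPM with EtOH and 8.45, 7.53, 7.58 and 6.44 CPM with 4-HT. In BPAC it had 1.66, 0.283, 3.48 and 2.40 CPM with EtOH and 7.27, 4.87, 9.18 and 9.54 CPM with 4-HT. No group of EtOH-treated samples overlapped the 4-HT-treated one of its genotype, and the EtOH-treated BPAC culture of donor 1 duplicate 2 stood lowest, with 7 counts. The log2 fold change was 2.33 ± 0.39 (SE) in BAC (adjusted p = 1.91e-05), 1.99 ± 0.38 in BPAC (adjusted p = 9.09e-05) and 2.00 ± 0.37 in PAC (adjusted p = 0.000243). In AC it was 1.29 ± 0.51 (adjusted p = 0.0869).

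*Rnf43*, the first of the Frizzled ligases, was the only member besides *Nkd1* to pass in all 4 genotypes. In AC it had 58.9 and 74.0 CPM with EtOH and 135.0 and 152.9 CPM with 4-HT. In PAC it had 51.6, 61.8, 47.9 and 71.1 CPM with EtOH and 109.9, 113.0, 117.0 and 137.1 CPM with 4-HT. The libraries with both *Xist* and Y-linked counts had 109.9 and 117.0 CPM, within the range of the 4-HT-treated PAC samples. In BAC it had 46.8, 39.8, 56.0 and 51.1 CPM with EtOH and 84.4, 90.9, 94.2 and 101.3 CPM with 4-HT. In BPAC it had 47.0, 47.9, 70.2 and 60.6 CPM with EtOH and 87.5, 96.9, 101.5 and 107.3 CPM with 4-HT. No 4-HT-treated sample overlapped an EtOH-treated sample of any genotype. The log2 fold change was 0.80 ± 0.13 (SE) in BPAC (adjusted p = 1.92e-05), 0.94 ± 0.13 in BAC (adjusted p = 3.04e-06), 1.04 ± 0.13 in PAC (adjusted p = 8.49e-06) and 1.11 ± 0.19 in AC (adjusted p = 0.000549). In the 14 cultures the change in log2 CPM ran from 0.53 to 1.29 with an SD of 0.20, the smallest SD of the 6 members.

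*Znrf3*, the other Frizzled ligase, rose in PAC, BAC and BPAC by amounts that were close to each other. In AC it had 11.6 and 15.8 CPM with EtOH and 23.6 and 21.2 CPM with 4-HT. In PAC it had 11.1, 13.4, 7.82 and 11.6 CPM with EtOH and 18.6, 18, 18.4 and 20.8 CPM with 4-HT. In BAC it had 9.64, 14.6, 10.4 and 10.5 CPM with EtOH and 20.2, 17.1, 20.1 and 18.1 CPM with 4-HT. All 3 pairs of groups were apart from each other. In BPAC it had 8.62, 11.6, 12.4 and 9.62 CPM with EtOH and 20.1, 14.6, 19.8 and 19.0 CPM with 4-HT, and donor 1 duplicate 2 was the lowest of the 4-HT-treated samples but above the highest EtOH-treated one. The log2 fold change was 0.74 ± 0.16 (SE) in BAC (adjusted p = 0.000313), 0.79 ± 0.16 in BPAC (adjusted p = 0.000144) and 0.79 ± 0.16 in PAC (adjusted p = 0.000443). In AC it was 0.71 ± 0.22 (adjusted p = 0.028) and did not pass, although with scaling by library size alone it was 0.93 and passed (adjusted p = 0.00355).

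*Nkd1*, which binds Dishevelled, had the largest log2 fold change of the members in AC and PAC, and passed in all 4 genotypes. Without both PAC duplicate 1 cultures it was second in PAC, at 1.98 behind *Apcdd1* at 2.13. In AC it had 4.54 and 2.06 CPM with EtOH and 20.6 and 11.6 CPM with 4-HT. In PAC it had 3.69, 3.99, 4.01 and 3.02 CPM with EtOH and 29.7, 14.8, 29.0 and 12.7 CPM with 4-HT. The 2 PAC libraries with both *Xist* and Y-linked counts thus had the highest *Nkd1* levels of all 28 samples, about the same as each other and above both duplicate 2 samples of PAC. In BAC it had 2.94, 3.15, 3.21 and 1.96 CPM with EtOH and 16.0, 12.5, 13.7 and 7.46 CPM with 4-HT. In BPAC it had 3.05, 3.19, 4.42 and 2.44 CPM with EtOH and 7.52, 14.8, 16.8 and 10.1 CPM with 4-HT. Every 4-HT-treated sample of any genotype was above every EtOH-treated sample. The log2 fold change was 1.91 ± 0.32 (SE) in BPAC (adjusted p = 2.1e-05), 2.15 ± 0.33 in BAC (adjusted p = 6.26e-06), 2.55 ± 0.32 in PAC (adjusted p = 6.44e-06) and 2.28 ± 0.46 in AC (adjusted p = 0.00175). Only 34 of all genes had a larger log2 fold change in AC and 27 in PAC, against 84 in BAC and 123 in BPAC.

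*Axin2*, the inducible scaffold and a widely used readout of Wnt signaling, had the smallest log2 fold change of the members in AC and PAC. In BPAC it was close to *Znrf3* and *Rnf43* (0.77, 0.79 and 0.80). By the mean over cultures *Znrf3* was the lowest in BPAC, at 0.79 against 0.82 for *Axin2*. In AC *Axin2* had 51.1 and 76.3 CPM with EtOH and 77.0 and 79.7 CPM with 4-HT. The 4-HT-treated AC samples were close to each other, and the EtOH-treated duplicate 2 sample was almost as high as they were. In PAC it had 50.5, 65.4, 41.5 and 45.6 CPM with EtOH and 80.0, 83.4, 77.5 and 82.9 CPM with 4-HT. In BAC it had 35.7, 47.9, 28.3 and 34.1 CPM with EtOH and 63.6, 72, 66.4 and 62.2 CPM with 4-HT. In both genotypes the groups were apart and the EtOH-treated samples spread more than the 4-HT-treated ones. In BPAC it had 24.4, 46.6, 55.1 and 39.6 CPM with EtOH and 55, 71.5, 78.7 and 78.0 CPM with 4-HT, where the lowest 4-HT-treated sample was just under the highest EtOH-treated one. The log2 fold change was 0.86 ± 0.19 (SE) in BAC (adjusted p = 0.000487), 0.77 ± 0.19 in BPAC (adjusted p = 0.00118) and 0.67 ± 0.19 in PAC (adjusted p = 0.00676). In AC it was 0.30 ± 0.26 (adjusted p = 0.481). The BPAC call was lost without donor 2 duplicate 2 (adjusted p = 0.0123). Of all genes, 25.5% had a larger log2 fold change than *Axin2* in AC. The PAC call of *Axin2* was lost without either duplicate 1 culture of PAC or without donor 2 duplicate 2 (adjusted p up to 0.0472), and it was also lost, at 0.67 with an adjusted p of 0.0103, without BAC donor 1 duplicate 1. With the counts of each donor summed it was lost too (0.68, adjusted p = 0.0155). Without either duplicate 1 culture the PAC call of *Notum* was lost as well (adjusted p up to 0.0421).

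**Figure D3:**
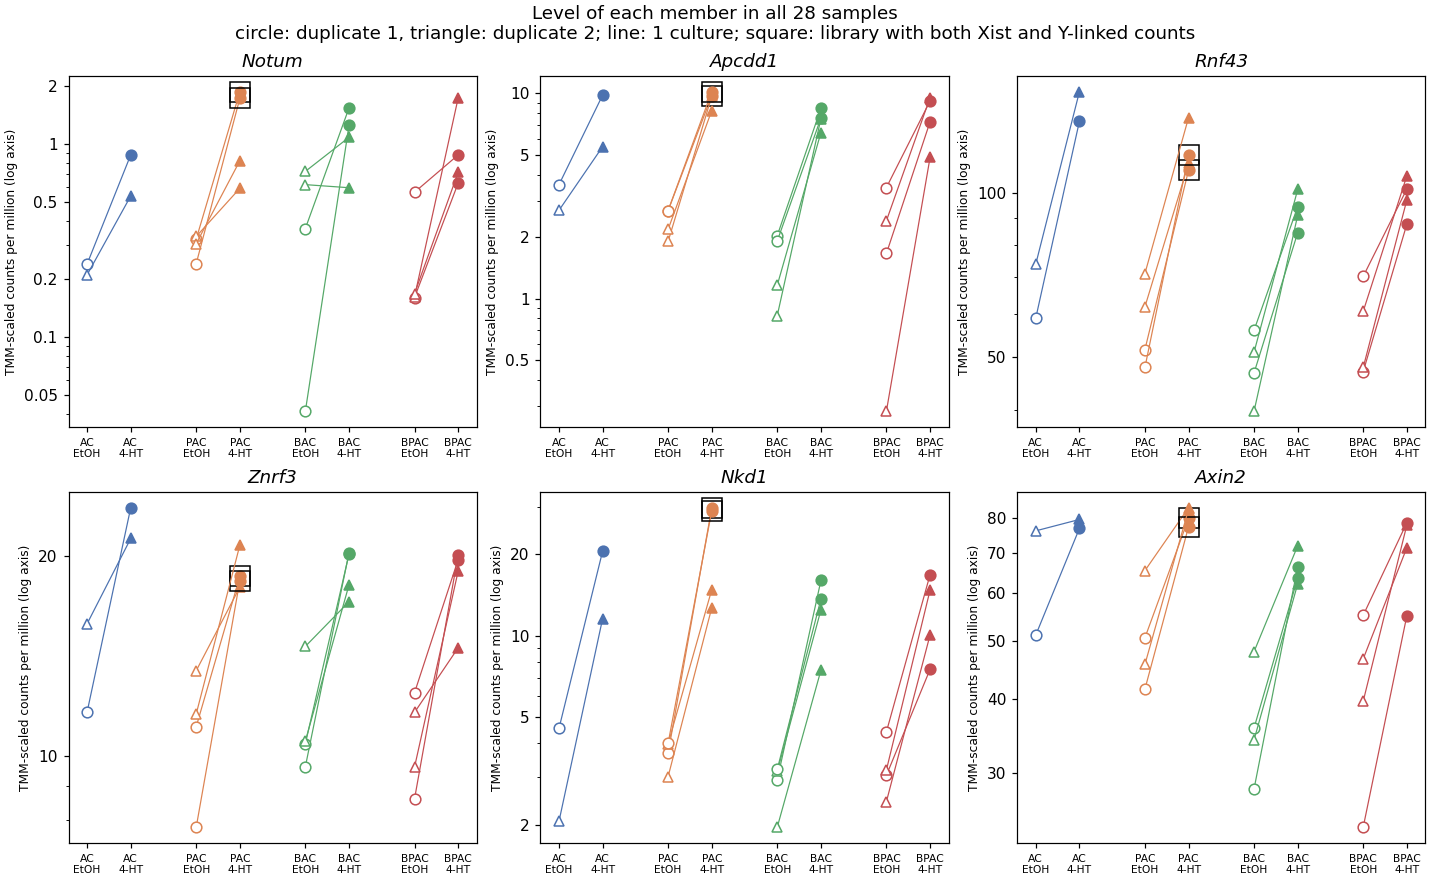
CPM (TMM-scaled, log axis) of each member in all 28 samples, EtOH open and 4-HT filled, with a line joining the samples of 1 culture, circles for duplicate 1 and triangles for duplicate 2; squares mark the 2 PAC libraries with both *Xist* and Y-linked counts. Those 2 libraries are the highest of all samples for *Nkd1* (29.7 and 29.0 CPM) and the highest PAC samples for *Notum* (1.87 and 1.73 CPM), and they lie within or near the range of the other PAC samples for the other members.

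Levels were also compared between members as CPM per kilobase of exon. With EtOH, *Axin2* and *Rnf43* were at the top in each genotype, with means from 6.63 to 11.6 and from 7.38 to 10.1, and their ranges over samples overlapped in each. *Znrf3* came next with means from 1.34 to 1.74 and *Nkd1* below it with 0.617 to 0.806. *Apcdd1* had means of 0.115 to 0.244 and *Notum* of 0.0933 to 0.181, and in BAC and BPAC the ranges of these last 2 overlapped. With 4-HT *Rnf43* was first in each genotype, as it had been with EtOH in BAC and BPAC but not in AC and PAC, with means from 14.1 to 22.0, and *Axin2* second with 12 to 14.7, their ranges being apart in AC and PAC and overlapping in BAC and BPAC. *Nkd1* was above *Znrf3* in each genotype, with means of 2.70 to 4.73 against 2.32 to 2.84, but their ranges were apart only in PAC. *Apcdd1* was above *Notum* in each genotype with 4-HT, where with EtOH *Notum* had been the higher in BAC. With 4-HT the ranges of these 2 were apart only in AC and overlapped in PAC, BAC and BPAC. These orders are descriptions, and the length used is that of all annotated exons, not of the transcript in these cells.

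**Figure D4:**
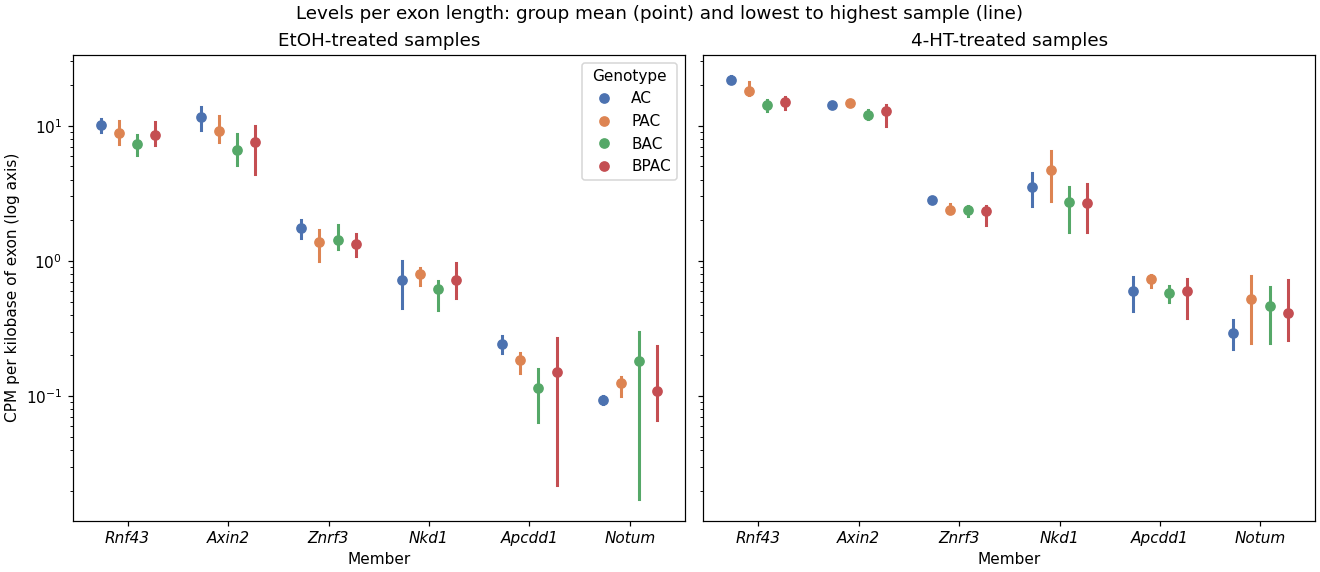
CPM per kilobase of exon (log axis) for each member with EtOH and with 4-HT, as the group mean (point) and the lowest to highest sample (line) in each genotype (colours). *Rnf43* and *Axin2* lie highest under both treatments, and *Nkd1* lies below *Znrf3* with EtOH and at or above it with 4-HT.

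The members did not change in step from culture to culture. The change in log2 CPM from EtOH to 4-HT was computed in each of the 14 cultures with a prior count of 2. Its mean was 2.15 ± 0.43 (SD, n = 14) for *Nkd1*, 2.08 ± 0.70 for *Apcdd1*, 1.60 ± 1.01 for *Notum*, 0.96 ± 0.20 for *Rnf43*, 0.77 ± 0.33 for *Znrf3* and 0.73 ± 0.31 for *Axin2*. Across these cultures, some of which share a donor, *Axin2* and *Znrf3* varied most alike (Pearson r = 0.703, Spearman rho = 0.692). The lowest correlation was between *Apcdd1* and *Znrf3* (r = -0.429, rho = -0.235), and the ligases *Rnf43* and *Znrf3* had r = -0.0292. Among 11472 other genes with a mean of at least 50 counts, those most like *Axin2* were *Troap* (r = 0.861, rho = 0.789) and *Usp36* (r = 0.856, rho = 0.846). Those most like *Nkd1* by r were *P2rx2* (r = 0.798, rho = 0.688) and *Wnt3* (r = 0.792). By rank *Wnt3* was much less like *Nkd1* (rho = 0.407). *Unc5cl* (r = 0.881, rho = 0.719) was most like *Rnf43*, and *Ccdc141* (r = 0.888, rho = 0.868) most like *Znrf3*. *Akr1c13* (r = 0.878, rho = 0.851) was most like *Apcdd1*, and *Rp9* (r = 0.852, rho = 0.895) most like *Notum*. With 14 points and so many genes, high values arise easily, and no test was made.

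**Figure D5:**
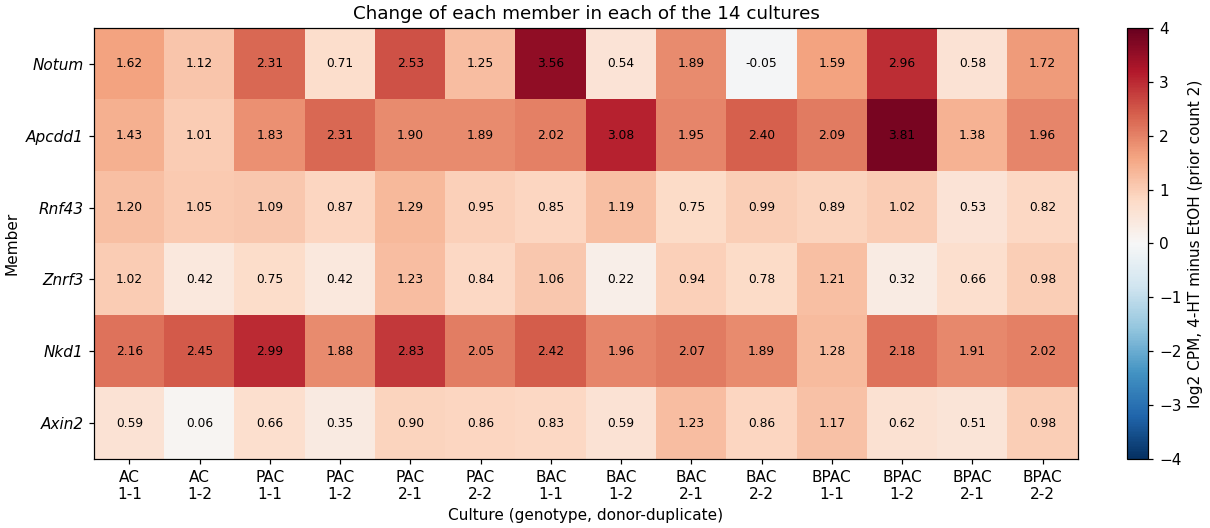
Change in log2 CPM from EtOH to 4-HT (prior count 2) of each member in each of the 14 cultures, with the value printed in each cell. Every cell is above 0 except *Notum* in BAC donor 2 duplicate 2 (-0.05), and *Rnf43* has the most even row (0.53 to 1.29).

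The duplicates were treated here as a batch, since each donor had 1 culture in each, and were compared in tests added after the data had been seen. The labels do not say whether cultures of different donors with the same number were grown together. Unrecombined organoids differed between duplicates in 20.3% of all genes, but 0 of the 6 members passed the threshold in edgeR's test of the EtOH levels, 3 of them having an unadjusted p under 0.05. *Apcdd1* was at -0.70 ± 0.26 (SE, adjusted p = 0.0422), *Znrf3* at 0.27 ± 0.10 (adjusted p = 0.0444) and *Axin2* at 0.29 ± 0.13 (adjusted p = 0.086), as the log2 level in duplicate 2 minus that in duplicate 1. The response to 4-HT differed between duplicates in 0.0518% of all genes and in 0 of the 6 members, of which 1 had an unadjusted p under 0.05. That was *Znrf3*, whose response was smaller in duplicate 2 by 0.40 ± 0.14 on the log2 scale (adjusted p = 0.271). With duplicate 1 alone 5, 5 and 4 members passed in PAC, BAC and BPAC, where 1830, 2670 and 2894 of all genes rose. With duplicate 2 alone 0, 3 and 4 members passed, where 2, 1430 and 1452 of all genes rose. Each duplicate alone left 1 AC sample per treatment, so no AC count is given. All 6 members were higher with 4-HT in each genotype within each duplicate.

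The next question was whether the *Braf* or the *Trp53* allele altered these responses. For the *Braf* allele the mean response of the genotypes with it was compared with that of the genotypes without it. Here 0 of the 6 members passed in edgeR, limma-voom or DESeq2, with none at an unadjusted p under 0.05 in edgeR without a block, while 6.61% of all genes passed. The differences were 0.33 ± 0.21 (SE) for *Axin2*, -0.39 ± 0.35 for *Nkd1*, 0.52 ± 0.41 for *Apcdd1*, -0.21 ± 0.15 for *Rnf43*, -0.22 ± 0.61 for *Notum* and 0.02 ± 0.17 for *Znrf3* on the log2 scale (adjusted p from 0.318 to 0.96). These errors leave room for a difference of some size, most of all in *Notum*, *Apcdd1* and *Nkd1*. With the replicate block in edgeR, which pairs the samples of a culture, 0 of the 6 passed where 1891 of all genes did. In that fit 2 members had an unadjusted p under 0.05. *Axin2* was then at 0.34 ± 0.14 (SE, adjusted p = 0.0825) and *Apcdd1* at 0.63 ± 0.29 (adjusted p = 0.115). For the *Trp53* allele 0 of the 6 members passed in any of the 3 tools and none had an unadjusted p under 0.05, and 0.0148% of all genes passed. The differences were 0.47 ± 0.62 (SE) for *Notum*, 0.19 ± 0.41 for *Apcdd1*, 0.02 ± 0.36 for *Nkd1*, 0.14 ± 0.21 for *Axin2*, -0.11 ± 0.15 for *Rnf43* and 0.06 ± 0.17 for *Znrf3*. Here too the errors leave room for a difference of some size.

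The alleles were also compared before recombination. Of the EtOH levels, 0 of the 6 members differed with the *Braf* allele at the threshold in edgeR, limma-voom or DESeq2, where 0.0296% of all genes did, but 3 had an unadjusted p under 0.05 in edgeR. *Axin2* was at -0.55 ± 0.15 (SE, adjusted p = 0.0956), *Apcdd1* at -0.68 ± 0.30 (adjusted p = 0.25) and *Rnf43* at -0.25 ± 0.11 (adjusted p = 0.232), as the log2 level with the allele minus that without. With the *Trp53* allele 0 of the 6 EtOH levels differed in the 3 tools, none at an unadjusted p under 0.05, and 0.0592% of all genes did.

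In the recombined organoids *Rnf43* was lower with the *Braf* allele. With 4-HT it had 84.4 to 107.3 CPM in the 8 BAC and BPAC samples and 109.9 to 152.9 CPM in the 6 AC and PAC samples, so the groups were apart by a narrow gap. It was the only 1 of the 6 members without overlap, which 21.1% of all genes also showed. The difference was -0.46 ± 0.10 (SE) on the log2 scale (adjusted p = 0.00106), and *Rnf43* was the 1 member called where 30.2% of all genes were, a share above that of the members. Within duplicate 1 the difference was -0.43 (adjusted p = 0.0221) and within duplicate 2 it was -0.48 (adjusted p = 0.0216), neither past the threshold. With the counts of each donor summed it was -0.44 (adjusted p = 0.0145), and without AC duplicate 2 it was -0.41 (adjusted p = 0.0121). Without both PAC duplicate 1 cultures it was -0.49 and still passed (adjusted p = 0.00108). With EtOH *Rnf43* was already at -0.25 ± 0.11 (adjusted p = 0.232), and the difference in its response to 4-HT was -0.21 ± 0.15 (adjusted p = 0.382). Neither passed, so the lower level with 4-HT was not shown to arise with recombination. With 4-HT *Nkd1* was at -0.59 ± 0.23 (adjusted p = 0.0422) and did not pass. With the counts of each donor summed *Nkd1* did pass (-0.59, adjusted p = 0.00641), while without both PAC duplicate 1 cultures it was at -0.27 ± 0.24 (adjusted p = 0.383). *Axin2* was at -0.22, *Apcdd1* at -0.16, *Znrf3* at -0.15 and *Notum* at 0.15 (adjusted p from 0.232 to 0.778). With the *Trp53* allele 0 of the 6 members differed in 4-HT level in the 3 tools, none at an unadjusted p under 0.05, and 0.0444% of all genes did.

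The other genes of the pathway were read beside the members from lists taken by name. Their PAC values include the 2 libraries with both *Xist* and Y-linked counts and are not given without them. Without both duplicate 1 cultures of PAC only 22 of all genes rose there and 26 fell. Of 13 other known Wnt target genes counted, 13 rose in BPAC, 12 in BAC, 12 in PAC and 6 in AC, none fell, and the median log2 fold change was 1.58, 1.70, 1.32 and 1.32. With the replicate block, which pairs the samples of a culture, 11 of the 13 rose in AC. The transcription factor gene *Ascl2* was at 2.30 ± 0.28 (SE) in BPAC, 2.48 ± 0.28 in BAC, 2.78 ± 0.28 in PAC and 2.67 ± 0.40 in AC (adjusted p up to 0.000174), and *Sp5*, which encodes a repressor of Wnt targets, was at 2.75, 2.91, 2.33 and 1.75 in the same order (adjusted p up to 0.00345). The 17 receptor and co-receptor genes counted moved both ways, with 3, 5, 8 and 8 rising and 1, 2, 4 and 4 falling in AC, PAC, BAC and BPAC. *Lgr5*, an R-spondin receptor that acts against *Rnf43* and *Znrf3*, rose by 1.70 ± 0.38, 1.64 ± 0.27, 2.12 ± 0.27 and 2.30 ± 0.27 (adjusted p up to 0.00345). Among the Frizzled genes, which encode what the ligases clear, *Fzd9* rose in the 4 genotypes (1.55 to 2.92, adjusted p up to 0.00845) and *Fzd5* fell in them (-1.62 to -1.01, adjusted p up to 0.00444).

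Wnt inhibitors outside the 6 members moved both ways. Only 11 of 27 listed were counted, of which 1 rose in BPAC, 0 in BAC, 4 in PAC and 1 in AC, while 2 fell in BAC and 2 in BPAC, and the median log2 fold change was between -0.33 and 0.16. *Dact1*, which like *Nkd1* binds Dishevelled, was at -0.58 ± 0.41 (SE) in BPAC (adjusted p = 0.236), 0.29 ± 0.42 in BAC (adjusted p = 0.579), 1.67 ± 0.40 in PAC (adjusted p = 0.00225) and 2.40 ± 0.61 in AC (adjusted p = 0.00897), and its response was lower with the *Braf* allele by the test of the difference (-2.18 ± 0.47, adjusted p = 0.00279). The secreted inhibitor *Sfrp5* passed in PAC alone (3.04 ± 0.73, adjusted p = 0.00233), with 2.00 ± 0.95 in AC (adjusted p = 0.155). Its level was very low, at 0 to 0.319 CPM with EtOH and 0.0967 to 1.39 CPM with 4-HT. *Dact1* was low as well, at 0.21 to 1.97 CPM with EtOH and 0.475 to 3.44 CPM with 4-HT. With 4-HT, 8 of the 11 were lower with the *Braf* allele and none higher, beside 30.2% of all genes called in either direction. Of 25 Wnt ligand genes 9 were counted, of which 2 rose in BPAC, 2 in BAC, 2 in PAC and 1 in AC, while 1 fell in BPAC and 1 in PAC. With the replicate block 3 ligand genes fell in BAC and 2 in BPAC. *Wnt5a* had the largest mean change and fell in BPAC (-2.49 ± 0.69, adjusted p = 0.00362) and PAC (-2.28 ± 0.62, adjusted p = 0.00614), with -2.08 ± 0.80 in BAC (adjusted p = 0.0298) and -1.65 ± 0.84 in AC (adjusted p = 0.183). *Wnt3* rose in AC (1.70 ± 0.43), PAC (3.16 ± 0.33), BAC (1.67 ± 0.31) and BPAC (1.86 ± 0.32), with an adjusted p of at most 0.00921.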

How the data were processed

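RNA-seq of 28 colon organoid samples was analysed from the deposited raw counts, which are whole-number counts per gene without normalization. The authors trimmed reads with Trimmomatic 0.39 and aligned them to GRCm38 (mm10) with STAR 2.5.2b, according to the submitters' processing notes. The counter, its annotation and its strand setting are not given in the sources used here. Totals ranged from 20577276 to 40068718 counts, and 13479 of 13519 genes were matched to a symbol. All genes were kept, the lowest sum over the samples being 116.

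Samples were grouped by the genotype and treatment labels, and a sample whose label has no second number counted as duplicate 1. Counts were scaled by TMM and tested with edgeR 4.0.16 (R 4.3.3), using the quasi-likelihood test with 8 group means, 10 contrasts and Benjamini-Hochberg adjustment over all genes. The test had been tested on simulated data with 200 changed genes. Those counts were independent, with a common spread and no donor or culture effect, so they do not bear on samples sharing a donor or culture. CPM used the TMM-scaled totals, and changes per culture used log2 CPM with a prior count of 2. P-values treat the 2 duplicates of a donor as separate samples. The EtOH-treated and 4-HT-treated samples of a culture share a donor and a duplicate number. In the 12 cultures other than those of AC their deviations from the group means correlated with a mean r of 0.416 (lowest 0.245). The study's methods name limma and no block, so the fit without the block was used for the results.

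The members, gene lists and tests were chosen with earlier results of these data known. Named were the 6 members, genes of each list with the largest mean change past the threshold in at least 1 genotype, and the genes most like each member, with the further epithelial and immune markers used as checks. Alternatives were limma-voom (limma 3.58.1), DESeq2 1.42.0 and its size factors, library size alone, 3 other filters, culture or donor as a block, counts summed per donor, each genotype alone, a threshold of 0.05, other prior counts, each culture left out, each duplicate alone, thinning to equal totals, the duplicate as covariate, and PAC without its duplicate 1 cultures. Promoter windows came from RefSeq. Protein sequences and the promoters of *Notum*, *Apcdd1* and *Znrf3* were not used here. Figures were drawn with matplotlib 3.10.9. A further epithelial marker is not reported here.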

Additional observations from a re-analysis of the deposited data

Results flagged for a closer look

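Of 54 sets of 4 values that were screened (CPM of a member in a group, or its change over the cultures of a genotype), 2 had 1 value far from the other 3 by Dixon's criterion, which chance gives in about 1 set in 20. *Notum* in the EtOH-treated BPAC samples was at 0.564 CPM in donor 2 duplicate 1, against 0.161 to 0.168 CPM in the others, which are 12 counts against 3 or 4. The change of *Apcdd1* in PAC was 2.31 in log2 CPM in donor 1 duplicate 2, against 1.83 to 1.90 in the others.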

How the results depend on the processing

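Scaling by library size alone raised the median log2 fold change of all genes with 4-HT by 0.17 to 0.22. The counts of members passing, 6 in BPAC and PAC, 5 in BAC and 2 in AC, were within 1.5 times of these under the other tools, scalings and filters (limma-voom lost *Notum* in PAC and BPAC) and under the replicate block, which changed no call of a member (*Axin2* in PAC, 0.69 with an adjusted p of 0.000261). With the block 1007 of all genes rose and 1216 fell in AC, against 406 and 574 without it, and 1891 against 893 differed in the *Braf* response. In AC 0 passed with AC fitted alone, where 37 of all genes rose, and 2 or 3 with 1 culture of another genotype left out. With counts summed per donor, a duplicate alone or an AC culture left out, 1 AC sample per treatment remained. It was assumed to vary like the other groups, so these fits cannot show whether the 2 AC calls hold, and no count is given. In PAC 0 passed with duplicate 2 alone and 0 without both duplicate 1 cultures, where 2 and 22 of all genes rose. The count in PAC was 4 to 6 with 1 culture left out, 4 being that without either duplicate 1 culture. In BAC 3 passed with duplicate 2 alone and 5 with any culture left out, and in BPAC 4 to 6, 4 being the count without donor 2 duplicate 2. For the *Braf* allele with 4-HT, 2 members passed at a threshold of 0.05, 0 in either duplicate alone, and 0 to 1 with 1 culture left out, 0 without AC duplicate 2. The other allele comparisons stayed at 0 members. Of the 4-HT changes none turned its sign. Values that did were not called in any setting. In the *Braf* response *Notum* was 0.10 with limma-voom, 0.35 with duplicate 2 alone and 0.23 without the PAC duplicate 1 cultures (-0.52 to 0.14 leaving out 1 culture), *Rnf43* was 0.016 with duplicate 2 alone, and *Znrf3* was -0.016 with library size alone, -0.015 with a mean of at least 100 counts and -0.026 with duplicate 1 alone (-0.14 to 0.16 leaving out 1). In the levels *Rnf43* with EtOH was 0.014 with duplicate 1 alone, *Nkd1* with EtOH was -0.43 to 0.14 leaving out 1, *Notum* with 4-HT was -0.30 with duplicate 1 alone (-0.056 to 0.35), and *Apcdd1* with 4-HT was 0.016 with duplicate 2 alone (-0.34 to 0.077). The causes were not tested. The allele levels could not be fitted with a culture or donor block, nor the allele responses with each genotype alone, and *Notum* had too few counts for the filter at 100. Few donors and the low counts of *Notum* limit these results.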
